A study of Mus musculus with 12 samples.

Results

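Sele, Selp, Icam1, Icam2, Vcam1, Alcam, Mcam, Pecam1 and Cd34 encode surface molecules of endothelium, most of which take part in leukocyte adhesion. These 9 genes were followed across 3 Gpr124 genotypes, out of 49315 genes in the count tables. They were listed by symbol, and their values were not used to choose them, although earlier results of these data were known when they were listed. CD31+ cells were sorted from forebrains of mouse embryos at E15.5, and RNA was sequenced from 4 WT, 4 Gpr124deltaC/deltaC and 4 Gpr124-/- embryos, 1 library per embryo. Gpr124deltaC/deltaC embryos carry, on both copies of the gene, a V5 tag and a stop codon in front of the intracellular domain of GPR124, a receptor that supports WNT signaling in brain endothelium. By the paper's account this shortened protein was less abundant than the normal one, at the cell surface and in total. Gpr124-/- embryos were bred from parents heterozygous for a lacZ allele. Both alleles are constitutive, so every cell of the embryo carries them, and the sort selected on the product of Pecam1, which is CD31 itself. By the study's methods the gate also left out dead cells, CD45+ leukocytes and cells with CD140b, the product of the pericyte gene Pdgfrb. No agent was given to any group.

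Leukocytes leave the blood in steps. Selectins on activated endothelium (E-selectin from Sele, P-selectin from Selp) slow them down, the immunoglobulin-family molecules ICAM1, ICAM2 and VCAM1 hold them through integrins, and PECAM1 at the cell borders helps them pass through. ALCAM and MCAM, also of the immunoglobulin family, have been linked to lymphocyte entry into the brain, and CD34 is a sialomucin of endothelial and hematopoietic progenitor cells. Healthy brain endothelium keeps selectins and VCAM1 low, and P-selectin is also stored in platelets, which carry PECAM1 and ICAM2 too.

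Promoter windows of 300 bases were found in RefSeq (GRCm38.p6) for 6 of the 9 genes, each running from 250 bases before to 50 bases after the RefSeq start of the gene. For Mcam and Alcam, among others, this start differs from the one in GENCODE vM21, which gave the gene coordinates. Icam2, Vcam1 and Pecam1 had no entry. The windows of 4 genes are printed 5′ to 3′ on the strand of the gene, because these 4 genes showed the widest fold differences between Gpr124-/- and WT. They are Sele at chr1:164047984-164048283 (plus strand), Selp at chr1:164115014-164115313 (plus strand), Mcam at chr9:44134408-44134707 (plus strand) and Alcam at chr16:52453032-52453331 (minus strand). Capitals mark matches, on either strand, to an NF-kB motif (GGG and CC with any 5 bases between them), a TCF/LEF motif (CTTTGAT) and an ETS motif (AGGAAG).
Sele: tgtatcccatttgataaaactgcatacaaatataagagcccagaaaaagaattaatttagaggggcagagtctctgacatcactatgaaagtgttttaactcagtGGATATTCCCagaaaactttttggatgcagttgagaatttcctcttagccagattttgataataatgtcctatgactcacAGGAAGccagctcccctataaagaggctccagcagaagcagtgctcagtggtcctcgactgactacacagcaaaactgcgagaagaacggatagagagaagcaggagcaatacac
Selp: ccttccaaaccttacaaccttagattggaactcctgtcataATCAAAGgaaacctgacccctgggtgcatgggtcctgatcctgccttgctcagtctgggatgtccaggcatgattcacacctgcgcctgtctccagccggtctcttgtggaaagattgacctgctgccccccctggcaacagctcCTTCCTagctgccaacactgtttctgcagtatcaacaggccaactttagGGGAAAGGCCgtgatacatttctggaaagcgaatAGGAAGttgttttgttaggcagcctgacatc
Mcam: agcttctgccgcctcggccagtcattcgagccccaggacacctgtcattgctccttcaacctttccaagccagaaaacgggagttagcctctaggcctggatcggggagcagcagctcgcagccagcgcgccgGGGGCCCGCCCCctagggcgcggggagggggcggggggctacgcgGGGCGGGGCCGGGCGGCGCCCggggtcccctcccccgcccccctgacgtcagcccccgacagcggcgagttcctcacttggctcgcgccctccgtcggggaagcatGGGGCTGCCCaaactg
Alcam: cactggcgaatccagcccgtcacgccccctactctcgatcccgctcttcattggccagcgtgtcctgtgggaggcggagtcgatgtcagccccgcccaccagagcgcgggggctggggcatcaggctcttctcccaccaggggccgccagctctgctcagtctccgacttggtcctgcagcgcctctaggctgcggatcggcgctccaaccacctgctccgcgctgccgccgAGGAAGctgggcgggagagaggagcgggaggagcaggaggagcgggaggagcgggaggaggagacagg

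Counted from the RefSeq start, the Sele window held an NF-kB match on the opposite strand from -145 to -136 and an ETS match from -65 to -60. The Selp window held an NF-kB match from -15 to -6 and an ETS match from 20 to 25. On the opposite strand it held an ETS match from -64 to -59 and a TCF/LEF match from -209 to -203. Mcam had NF-kB matches at 7 start positions, several of which overlap, in a window of 72.7% GC, and Alcam had 1 ETS match from -18 to -13. In the windows that are not printed, Icam1 held 1 NF-kB match and Cd34 held 2 NF-kB matches and 1 ETS match. Of 32851 RefSeq windows, 50.8% held the NF-kB letters, 35.4% the ETS letters and 3.73% the TCF/LEF letters, and of the 6 genes only Selp held the last. Sele and Selp lie 57.6 kb apart on chromosome 1.

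Libraries held between 13877572 and 22551163 reads assigned to genes. The targeted gene, listed as Adgra2, had 38.6 ± 10.4 TPM in WT, 43.4 ± 13.7 in Gpr124deltaC/deltaC and 4.86 ± 0.988 in Gpr124-/- (SD, n = 4 each), where TPM is a level per gene length with 1 common total for all libraries. Gm23935, a short gene, took 12.5% of the TPM of the WT library JE6 and 14.1% of that of the Gpr124deltaC/deltaC library JE3 against 1.22% to 3.04% in the other libraries, which lowers every other TPM of those 2 libraries. The test used counts scaled by TMM, a scaling that rests on most genes. All 10 endothelial markers were above 1 TPM in every genotype, with summed levels of 12700 to 16300 TPM in WT, 7970 to 13000 in Gpr124deltaC/deltaC and 6810 to 8270 in Gpr124-/-, sums that are led by Cldn5 (7610 to 10100 TPM in WT and 1880 to 2720 in Gpr124-/-). Erythroid markers summed to 17600 to 52500 TPM in Gpr124-/- against 6650 to 11200 in WT, and 10 platelet and megakaryocyte markers to 591 to 1980 TPM against 288 to 577. Ptprc, the gene of CD45, had only 11, 8 and 6 counts over the 4 libraries of WT, Gpr124deltaC/deltaC and Gpr124-/-. The 10 macrophage and microglia markers summed to 12.4 to 20.4, 18.3 to 39.2 and 40.2 to 69.0 TPM in the same order, most of it from Fcer1g, which platelets also express and which rose by 1.94 in Gpr124-/- against WT (adjusted p = 0.00166 by edgeR). Of the others, C1qa (6, 10 and 34 counts) and C1qb (17, 21 and 50) had their highest counts in Gpr124-/-, Mrc1 (238, 230 and 81), Csf1r (46, 72 and 43), Tyrobp (21, 25 and 15) and Cx3cr1 (10, 20 and 9) did not, Aif1 and Adgre1 had at most 11, and the part of such cells in any result was not tested. Embryo labels begin with the letters J, K, L or M, whose meaning is not given, and 3 of the 4 Gpr124-/- libraries carry the M that no other genotype has. In such bulk samples, fewer cells of a type and less RNA per cell cannot be told apart.

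In WT, the order of levels by mean TPM was Cd34, Icam2, Pecam1, Mcam, Icam1, Vcam1, Alcam, Selp and Sele. Cd34 (711 ± 91.8 TPM) and Icam2 (671 ± 90.9) overlapped across the 4 libraries, as did Icam2 and Pecam1 (491 ± 52.9), Vcam1 and Alcam, and Selp and Sele. Mcam (313 ± 30.6), Icam1 (85.7 ± 12.3) and Vcam1 (3.79 ± 0.537) were each separate from the gene above them. The 9 genes thus fell into 4 abundant genes, Icam1 at an intermediate level and 4 genes under 6 TPM in every WT library. In Gpr124-/-, Mcam stood above Pecam1 in all 4 libraries, and Sele and Selp had mean levels above that of Alcam, although neighbours from Vcam1 down overlapped.

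**Figure D1:**
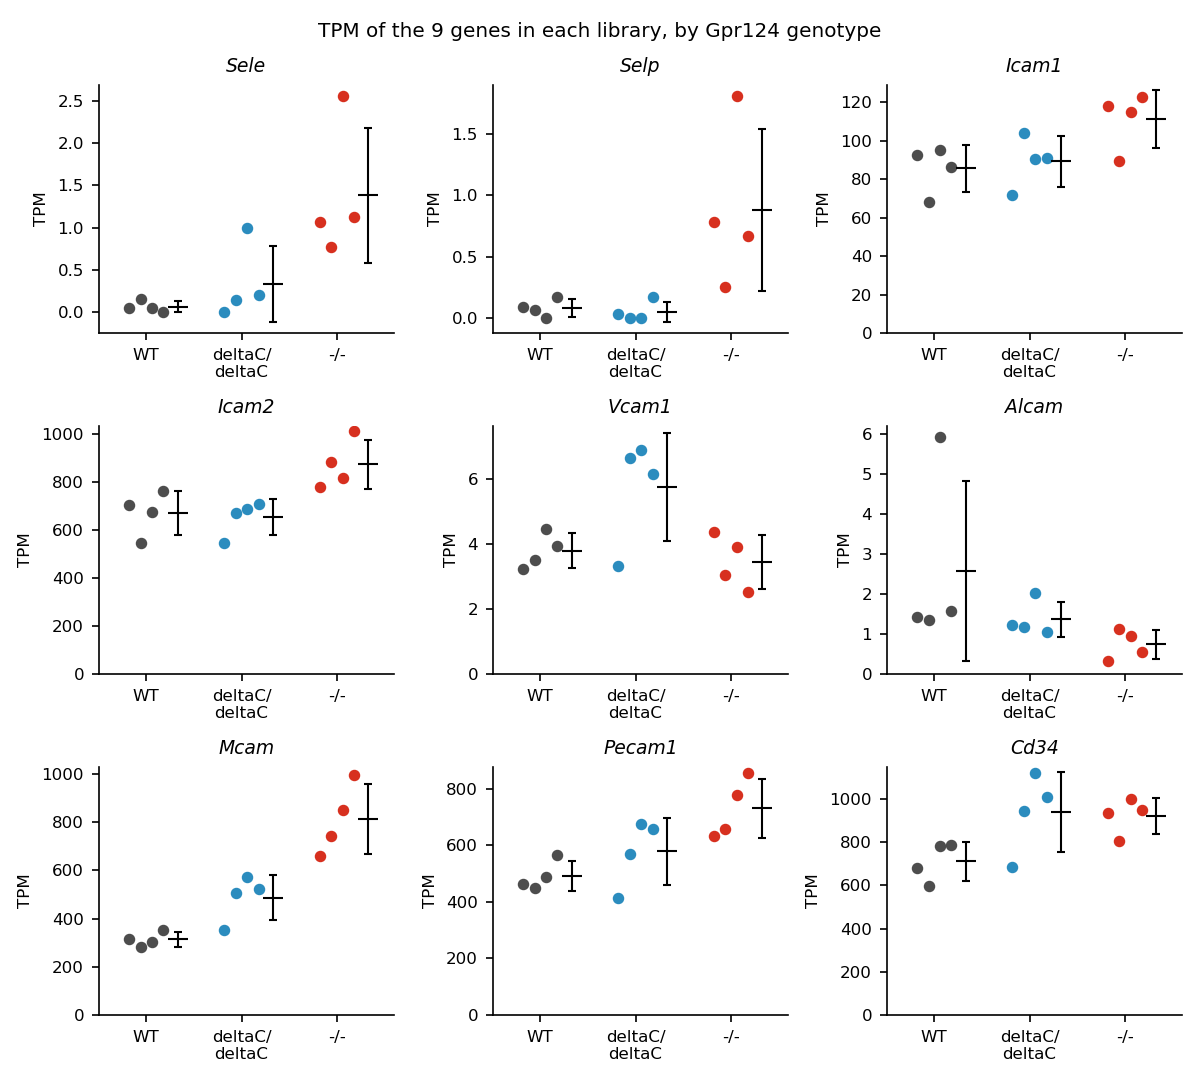
TPM of each of the 9 genes (vertical axis, linear, a separate scale for each gene) in the 4 libraries of WT (grey), Gpr124deltaC/deltaC (blue) and Gpr124-/- (red), with the mean and SD of 4 libraries in black. Mcam rose in steps from WT to Gpr124-/-, Sele and Selp were near 0 outside Gpr124-/- but for 1 Gpr124deltaC/deltaC library of Sele at 1.0 TPM, and 1 WT library stood apart for Alcam at 5.92 TPM.

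In Gpr124-/- against WT, 8 of the 9 genes passed the filter on low counts and entered the fit across 16637 genes. Calls required an adjusted p under 0.05 together with a log2 fold change beyond 1 in either direction. Of the 8 genes, 2 were called higher (Sele and Mcam) and 1 lower (Alcam), against 9.88% of all tested genes called. Sele passed the filter on low counts only through the Gpr124-/- libraries, so its call was bound to appear, and Pecam1 was the gene of the sort. Without these, 2 of 6 genes were called. By adjusted p alone, 6 rose (Sele, Icam1, Icam2, Mcam, Cd34 and the sort marker Pecam1) and 1 fell, against 19.8% of all tested genes in either direction and 10.5% that rose. Without Sele and Pecam1, 4 of 6 rose and 1 fell. The median log2 fold change was 0.34 over the 8 genes and over these 6, beside -0.01 over all tested genes. The libraries of the 2 genotypes did not overlap in TPM for 6 of the 8 fitted genes (4 of 6 without Sele and Pecam1), against 20.3% of all tested genes, nor for Selp.

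Gpr124deltaC/deltaC against WT gave 0 called among the 8 genes by edgeR, against 1.92% of all tested genes. By adjusted p alone only Mcam rose, against 4.09% of all tested genes, and 3 of the 8 genes had an unadjusted p under 0.05, against 14.4% of all tested genes. DESeq2 also called 0 of them with the fold threshold, against 426 of all 16637 tested genes. On the TPM scale 0 of the 8 fitted genes were free of overlap, against 8.85% of all tested genes. In Gpr124-/- against Gpr124deltaC/deltaC, edgeR called 0 of the 8 genes, against 4.6% of all tested genes. DESeq2 called 0 of the 7 to which it gave an adjusted p, against 947 of all 16637 tested genes. By edgeR 6 of the 8 genes had an unadjusted p under 0.05, against 22.8% of all tested genes. These 6 included Sele, which passed the filter on low counts only through the Gpr124-/- libraries, and the sort marker Pecam1. The count therefore follows in part from the filter and the sort, and nothing is drawn from its excess over that share. Icam2 and Mcam were higher and Vcam1 lower by adjusted p alone, against 8.82% of all tested genes, and 2 of the 8 fitted genes did not overlap, against 11.5%, nor did Selp. The 3 comparisons share libraries and are therefore not independent.

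Because label letters and genotypes go together in part, the differences were also taken within letters, as log2 differences of CPM with an offset of 0.5. Letter K holds 1 Gpr124-/- and 1 WT library, and Gpr124-/- minus WT was 1.48 for Sele, 1.72 for Selp, 1.08 for Mcam and -3.59 for Alcam there. The same pair gave 0.26 for Icam1, 0.16 for Icam2, -0.08 for Vcam1, 0.32 for Pecam1 and 0.21 for Cd34. All 9 genes kept the direction of the comparison over all libraries, but this pair is part of that comparison and is no separate check. With the letter as a term of the edgeR fit, Gpr124-/- against WT rests on the pair KE4 and KE8. With 1 library on each side, only the log2 fold changes are given for it: 1.08 for Mcam, 4.15 for Sele, 0.26 for Icam1 and 0.16 for Icam2. Pecam1 gave 0.32, Cd34 0.21 and Alcam -4.26. For Alcam, KE8 was the highest and KE4 the lowest of all libraries in TPM. Gpr124deltaC/deltaC minus WT within J and within L was 0.29 and 0.33 for Cd34, 0.04 and 0.13 for Pecam1, -0.09 and -0.23 for Icam2, 0.07 and -0.03 for Icam1, and -0.10 and 0.98 for Sele. No letter holds both mutants, so that letter and genotype cannot be told apart between them without the WT libraries.

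**Figure D2:**
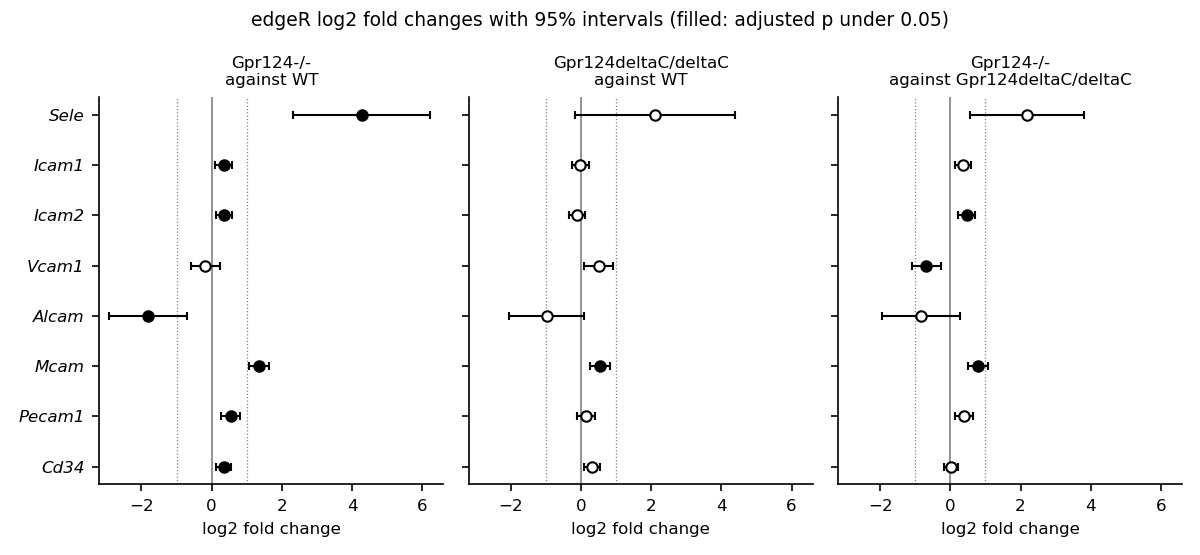
Log2 fold changes (horizontal axis) of the 8 genes in the fit, fitted with edgeR, with 95% intervals in each of the 3 comparisons; filled points have an adjusted p under 0.05 over all tested genes, and dotted lines mark a log2 fold change of 1 in each direction. The interval of Mcam in Gpr124-/- against WT, 1.05 to 1.63, lies wholly beyond 1, and the intervals of Sele and Alcam are the widest.

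E-selectin mRNA was almost absent from WT endothelium and present in each Gpr124-/- library. Sele had 1, 3, 1 and 0 counts in the WT libraries JE1, JE6, KE8 and LE6, and 0, 2, 13 and 3 counts in the Gpr124deltaC/deltaC libraries JE3, JE4, LE2 and LE5. It had 18, 12, 54 and 20 counts in the Gpr124-/- libraries KE4, ME1, ME4 and ME5. All 4 Gpr124-/- libraries were above every WT library, whereas the Gpr124deltaC/deltaC library LE2 reached into their range. In TPM these counts were 0.0633 ± 0.0667 in WT, 0.335 ± 0.449 in Gpr124deltaC/deltaC and 1.38 ± 0.801 in Gpr124-/- (SD, n = 4 each). The log2 fold change of Gpr124-/- against WT was 4.28 (SE 0.90, 95% interval 2.33 to 6.22, adjusted p = 0.00442 by edgeR, adjusted over all tested genes). Sele entered the fit only through the Gpr124-/- libraries, so this p and the later ones for Gpr124-/- follow from the filter in part. Summed over libraries, 104 counts against 5 gave a ratio of 22.7, with an interval of 9.41 to 71.3 that covers counting error only. Gpr124deltaC/deltaC against WT gave 2.10 (95% interval -0.18 to 4.38, adjusted p = 0.41 by edgeR), with 13 of its 18 counts from LE2. Gpr124-/- against Gpr124deltaC/deltaC gave 2.18 (adjusted p = 0.096 by edgeR). Both rest on LE2. Without it they were 0.67 (adjusted p = 0.934) and 3.60 (adjusted p = 0.0203), and the second gains its call because the one overlapping library is gone.

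P-selectin mRNA was also highest in Gpr124-/-, but it was not raised in the Gpr124deltaC/deltaC library LE2. Selp had 3, 2, 0 and 5 counts in the WT libraries in the order above, 1, 0, 0 and 4 in Gpr124deltaC/deltaC and 20, 6, 58 and 18 in Gpr124-/-. The 4 Gpr124-/- libraries lay above all others, by only 1 count in ME1. Selp failed the filter on low counts and was tested singly, with 0.0822 ± 0.0709 TPM in WT, 0.0525 ± 0.0823 in Gpr124deltaC/deltaC and 0.88 ± 0.663 in Gpr124-/- (SD, n = 4 each). An exact permutation test on TPM, two-sided, gave p = 0.0286 for Gpr124-/- against WT and for Gpr124-/- against Gpr124deltaC/deltaC, which is the smallest p that 4 against 4 libraries allow, and p = 0.657 for Gpr124deltaC/deltaC against WT. Where Selp does pass a filter it is through the Gpr124-/- libraries, so a call there follows from the filter in part. Fitted without the filter, the log2 fold change of Gpr124-/- against WT was 3.32 (95% interval 1.70 to 4.93, adjusted p = 0.00795 by edgeR). Summed counts of 102 against 10 gave a ratio of 11.1 (5.8 to 23.9, counting error only). Exons of Selp overlap 2 annotated genes on the opposite strand, Gm16548 and Gm16587, and whether counting used strand is not given in the sources used here.

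Platelet markers were higher in the genotype with the higher selectin levels. Of the 10 platelet and megakaryocyte markers, 9 rose in Gpr124-/- against WT at an adjusted p under 0.05 by edgeR, and none was at 0 over the libraries of a genotype. Their summed TPM was 591 in KE4, 1970 in ME1, 1400 in ME4 and 1980 in ME5. ME1, with one of the highest sums, had the lowest Selp and Sele levels of Gpr124-/- (0.255 and 0.772 TPM), and ME4 had the highest (1.81 and 2.56 TPM). KE4 had a marker sum close to the 577 of the WT library LE6, and it had 20 Selp and 18 Sele counts where LE6 had 5 and 0. The part of platelet RNA in these differences was not tested.

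**Figure D3:**
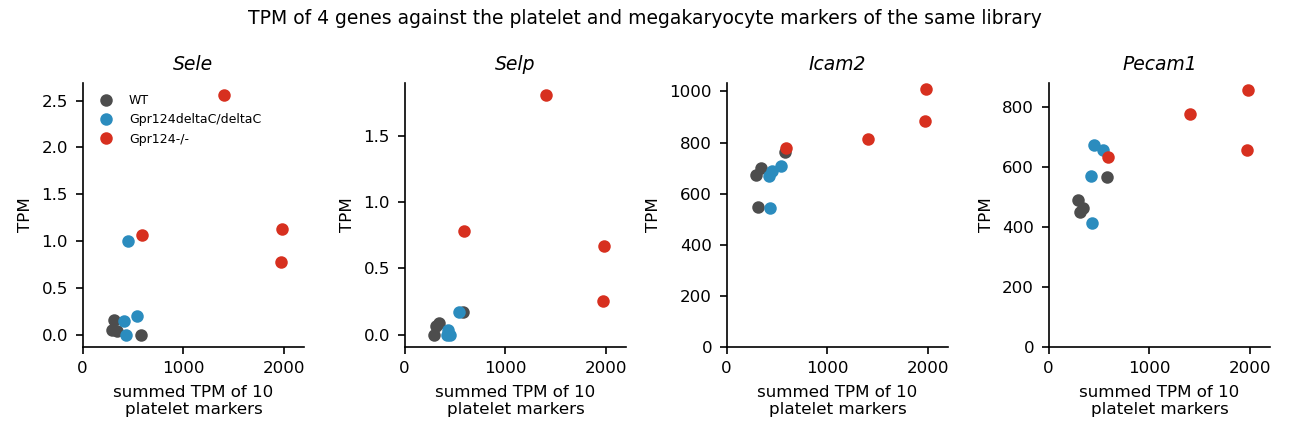
TPM of Sele, Selp, Icam2 and Pecam1 (vertical axes, linear) against the summed TPM of 10 platelet and megakaryocyte markers in the same library (horizontal axis, linear), 1 point per library, WT in grey, Gpr124deltaC/deltaC in blue and Gpr124-/- in red. The Gpr124-/- library with a sum of 591 TPM lies beside the WT and Gpr124deltaC/deltaC libraries on the horizontal axis, above them for Selp (0.784 TPM), only just above the highest of them for Sele (1.07 against 0.998 TPM) and Icam2 (779 against 762), and below 2 Gpr124deltaC/deltaC libraries for Pecam1 (632 against 674 and 657).

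The immunoglobulin-family ligands of leukocyte integrins differed less. Icam1, which encodes the ligand of LFA-1 and Mac-1 that inflammation raises, had 92.7, 68.0, 95.4 and 86.5 TPM in the WT libraries and 71.8, 104, 90.7 and 91.2 in Gpr124deltaC/deltaC. In Gpr124-/- it had 118, 89.4, 115 and 123 TPM, and 3 of these 4 libraries were above every WT library. The log2 fold change of Gpr124-/- against WT was 0.34 (SE 0.11, adjusted p = 0.0466 by edgeR), and the adjusted p was above 0.05 in 13 of 17 alternative analyses. Gpr124deltaC/deltaC against WT gave -0.02 (95% interval -0.26 to 0.22, adjusted p = 0.983 by edgeR), a sign that was not stable. Gpr124-/- against Gpr124deltaC/deltaC gave 0.36 (adjusted p = 0.0648 by edgeR). Exons of Icam1 overlap Gm47079 on the opposite strand.

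Icam2, the constitutive endothelial ligand of LFA-1, had 701, 546, 674 and 762 TPM in WT, 544, 670, 688 and 708 in Gpr124deltaC/deltaC and 779, 883, 813 and 1010 in Gpr124-/-. Every Gpr124-/- library was above the others, but KE4 exceeded LE6 by little, and on the TMM-scaled CPM scale Gpr124-/- (493 to 687 CPM) overlapped WT (404 to 496). Icam2 rose by a log2 fold change of 0.35 in Gpr124-/- against WT (SE 0.11, adjusted p = 0.0366 by edgeR) and by 0.47 against Gpr124deltaC/deltaC (SE 0.11, adjusted p = 0.0169). The second was 0.31 with the letter as a term, a fit that leaves it to 1 Gpr124-/- library (KE4). Its adjusted p by edgeR was 0.0536 without the Gpr124-/- library ME1. The first had an adjusted p above 0.05 in 10 of 17 alternative analyses. The Gpr124deltaC/deltaC difference from WT was -0.12 (95% interval -0.35 to 0.11, adjusted p = 0.743 by edgeR). The 2 Gpr124-/- libraries with the highest Icam2, ME5 and ME1, were also those with the highest platelet marker sums, whose part was not tested.

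Vcam1, which encodes the ligand of the integrin VLA-4, was highest on average in Gpr124deltaC/deltaC (a mean of 5.75 TPM, against 3.79 in WT and 3.46 in Gpr124-/-). It had 3.24, 3.50, 4.47 and 3.94 TPM in WT and 4.37, 3.04, 3.91 and 2.53 in Gpr124-/-, ranges that overlap. In Gpr124deltaC/deltaC it had 3.32, 6.64, 6.90 and 6.16 TPM, so that 3 of 4 libraries were above every library of the other genotypes and JE3 was within their range. Gpr124deltaC/deltaC against WT gave a log2 fold change of 0.50 (95% interval 0.09 to 0.92, adjusted p = 0.217 by edgeR). Within the letters J and L the same difference was 0.41 and 0.60. Vcam1 fell by 0.68 in Gpr124-/- against Gpr124deltaC/deltaC (SE 0.19, adjusted p = 0.0466 by edgeR), a result whose adjusted p was above 0.05 in 13 of 17 alternative analyses. Gpr124-/- against WT gave -0.18 (95% interval -0.59 to 0.24, adjusted p = 0.597 by edgeR). Vcam1 is also a gene of mesenchymal cells, and, in spite of a gate against CD140b, pericyte markers summed to 28.0 to 67.1 TPM in WT, 14.4 to 40.5 in Gpr124deltaC/deltaC and 35.7 to 45.7 in Gpr124-/-. The markers did not move together: in Gpr124-/- against WT Abcc9 rose by 2.66 (adjusted p = 0.000327 by edgeR), Rgs5 fell by 1.47 (adjusted p = 0.0186), and Pdgfrb (-0.09, adjusted p = 0.911) and the other 5 did not pass. In Gpr124deltaC/deltaC against WT, where Vcam1 was at 0.50, 7 of the 8 markers had fold changes below 0 (Kcnj8 at -1.29 and Vtn at -1.35 among them) and none passed. In Gpr124-/- against Gpr124deltaC/deltaC, where Vcam1 fell, Kcnj8 rose by 1.43 (adjusted p = 0.0324) and Abcc9 by 2.75 (adjusted p = 0.00118). The part of such cells in the levels of Vcam1 or Mcam was not tested.

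Mcam, which encodes the adhesion molecule CD146 of endothelium and pericytes, showed the best resolved difference of the 9 genes. Its TPM was 315, 282, 302 and 354 in WT, 353, 504, 571 and 521 in Gpr124deltaC/deltaC and 658, 743, 850 and 995 in Gpr124-/-. The Gpr124-/- libraries lay above all others, and Gpr124deltaC/deltaC overlapped WT only through JE3, whose TPM is lowered by Gm23935. On the TMM-scaled CPM scale, Gpr124deltaC/deltaC (460 to 602) did not overlap WT (347 to 405). In Gpr124-/- against WT, Mcam rose 2.53-fold (95% interval 2.07 to 3.09), a log2 fold change of 1.34 (SE 0.13, adjusted p = 1.47e-05 by edgeR). In Gpr124deltaC/deltaC against WT it rose by 0.55 on the log2 scale (SE 0.13, adjusted p = 0.0357 by edgeR), and in Gpr124-/- against Gpr124deltaC/deltaC by 0.79 (SE 0.13, adjusted p = 0.00317). The adjusted p of the second was above 0.05 in 9 of 17 alternative analyses, each without 1 library. With the letter as a term the third was 0.59, a fit that leaves it to 1 Gpr124-/- library (KE4), so that no p is given for it. Within the letters J and L Gpr124deltaC/deltaC against WT gave 0.45 and 0.52. The Gpr124-/- library KE4 had 658 TPM of Mcam where the WT library LE6 had 354, at platelet marker sums of 591 and 577, and the part of platelet RNA over all libraries was not tested. Exons of Mcam overlap Gm10687 on the opposite strand.

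Alcam, which encodes the CD6 ligand CD166, was the one gene called lower in Gpr124-/-. It had 1.42, 1.35, 5.92 and 1.58 TPM in WT, 1.23, 1.17, 2.01 and 1.05 in Gpr124deltaC/deltaC and 0.316, 1.13, 0.95 and 0.552 in Gpr124-/-. All Gpr124-/- libraries were below all WT libraries, and the WT library KE8 stood far above the others. The log2 fold change of Gpr124-/- against WT was -1.81 (SE 0.51, 95% interval -2.92 to -0.70, adjusted p = 0.0251 by edgeR). Without KE8 it was -1.02 with an adjusted p of 0.0859, and without the Gpr124-/- library KE4 or ME5 the adjusted p was 0.0573 or 0.0723. KE8 was also the library with the highest fibroblast marker sum, 68.5 TPM against 9.03 to 17.9 in the other 11 libraries, and with the highest pericyte marker sum, 67.1 TPM, and its neuron marker sum, 50.1 TPM, was the lowest of all libraries. The gate leaves out CD140b+ cells, and the part of other cells in the Alcam level of KE8 was not tested. Gpr124deltaC/deltaC against WT gave -0.98 (95% interval -2.05 to 0.10, adjusted p = 0.42 by edgeR), and -0.19 without KE8. Gpr124-/- against Gpr124deltaC/deltaC gave -0.83 (95% interval -1.96 to 0.29, adjusted p = 0.369 by edgeR).

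Pecam1 encodes CD31, the molecule by which the cells were sorted, so its level is partly set by the sort, and its differences are given as a description whatever their p. It had 462, 448, 490 and 566 TPM in WT, 414, 569, 674 and 657 in Gpr124deltaC/deltaC and 632, 657, 777 and 857 in Gpr124-/-. The Gpr124-/- libraries lay above those of WT, and Gpr124deltaC/deltaC overlapped both. The log2 fold change of Gpr124-/- against WT was 0.54 (SE 0.12, adjusted p = 0.00778 by edgeR), that of Gpr124deltaC/deltaC against WT 0.14 (adjusted p = 0.727) and that of Gpr124-/- against Gpr124deltaC/deltaC 0.39 (adjusted p = 0.0706). At platelet marker sums of 591 and 577 TPM, the Gpr124-/- library KE4 had 632 TPM of Pecam1 and the WT library LE6 had 566. Among other endothelial markers in Gpr124-/- against WT, Cdh5 (VE-cadherin) rose by 0.74 and the claudin gene Cldn5 fell by 2.12 on the log2 scale, as did Tek by 0.73 and Erg by 0.41. None of Kdr (-0.16), Flt1 (0.23), Tie1 (-0.07), Egfl7 (0.03), Esam (-0.30) and Sox17 (0.43) passed, so that the endothelial markers did not move together. Pecam1 and Icam2 lie 266 kb apart on chromosome 11, with Ern1 and Tex2 between them.

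Cd34, the most abundant of the 9 genes, had 679, 596, 784 and 787 TPM in WT, 684, 943, 1120 and 1010 in Gpr124deltaC/deltaC and 936, 805, 999 and 949 in Gpr124-/-. The Gpr124-/- libraries lay above those of WT by a narrow margin, and 3 of 4 Gpr124deltaC/deltaC libraries did too. The log2 fold change against WT was 0.34 in Gpr124-/- (SE 0.10, adjusted p = 0.0282 by edgeR) and 0.31 in Gpr124deltaC/deltaC (SE 0.10, adjusted p = 0.11). The difference between the mutants was 0.02 (95% interval -0.19 to 0.23, adjusted p = 0.916 by edgeR), with a sign that was not stable. Cd34 in Gpr124-/- against WT had an adjusted p above 0.05 in 4 of 17 alternative analyses. Hematopoietic progenitor markers, which belong to another cell type with Cd34, summed to 72.4 to 91.9 TPM in WT, 53.7 to 109 in Gpr124deltaC/deltaC and 57.3 to 111 in Gpr124-/-. Kit made up most of the sums in WT (62.6 to 77.5 TPM) and Gpr124deltaC/deltaC (41.9 to 93.2 TPM). In Gpr124-/- Kit had 38.8 to 47.6 TPM, and Gfi1b had 9.55 to 61.4 TPM. Kit fell by 0.69 in Gpr124-/- against WT, while Runx1 rose by 2.52 and Gfi1b by 2.28 (adjusted p = 0.00451, 0.00187 and 0.00459 by edgeR), and Myb, at 0.11, did not pass. Spi1 had 7, 8 and 87 counts over the 4 libraries of WT, Gpr124deltaC/deltaC and Gpr124-/- and passed the filter only through the last. Mpo, which failed the filter, went the other way with 53, 9 and 8 counts in the same order. The part of blood progenitors in the Cd34 level was not tested. Exons of Cd34 overlap Gm16897 on the opposite strand.

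Genes around these molecules were followed in 4 lists, each described by its counts by adjusted p alone in Gpr124-/- against WT and by the genes called. Of all tested genes, 19.8% passed by adjusted p alone in that comparison, and 10.5% rose. Of 16 fitted genes of leukocyte capture and transmigration, 5 rose and 4 fell, with a median log2 fold change of 0.19 beside -0.01 over all tested genes. Ccl2, a monocyte chemokine, had 14, 25 and 72 counts over the 4 libraries of WT, Gpr124deltaC/deltaC and Gpr124-/- (0.448 ± 0.444 TPM in WT and 2.50 ± 0.986 in Gpr124-/-; SD, n = 4 each). It was called higher, but it passed the filter on low counts only through the Gpr124-/- libraries, so its call follows from the filter in part. Among those that fell were Bsg (-2.45; basigin, a partner of monocarboxylate carriers), Ackr1 (-2.05; the atypical chemokine receptor of venules) and Cxcl12 (-1.77; a retention chemokine). Bsg and Ackr1 also fell in Gpr124deltaC/deltaC against WT, by 1.74 and 1.37, and Aoc3, an amine oxidase of vascular cells, rose by 1.15. Madcam1, the mucosal addressin, was higher in Gpr124-/- than in Gpr124deltaC/deltaC by 1.04 (adjusted p = 0.00581 by edgeR). Of the fitted chemokines and chemokine receptors of this list, Ackr1 and Cxcl12 thus fell in Gpr124-/- against WT. The only one to rise by adjusted p was Ccl2, with the limit given above.

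Endothelial surface glycoproteins had 8 genes higher and 2 lower of 18 fitted, beside 10.5% of all tested genes that rose and 19.8% in either direction, with a median of 0.52. Emcn (endomucin) rose by 1.26, from 180.0 ± 23.8 TPM in WT to 287 ± 33.8 in Gpr124deltaC/deltaC and 444 ± 27.8 in Gpr124-/- (SD, n = 4 each; adjusted p = 4.64e-07 by edgeR in Gpr124-/- against WT). Cd63, a tetraspanin of endosomes and secretory granules, rose by 1.55, and Cd200, an inhibitory ligand of myeloid cells, by 1.17. Cd63 is abundant in platelets as well, and the platelet marker sums above apply to it.

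Among 18 fitted cytokine receptors and NF-kB targets, 7 rose and 4 fell, beside the same shares of 10.5% and 19.8%, with a median of -0.04. Tnfaip2 (2.40), Traf1 (2.17) and Irf1 (1.30), all genes that TNF or interferon induces, had the largest rises among the 4 called higher, and Csf1, a macrophage growth factor, fell by 1.33. Nfkbie (1.15) was also called higher, while Tnfrsf1b (-0.77), Birc3 (-0.51) and Nfkbia (-0.42) fell by adjusted p alone. Traf1 was low, with 39 counts over the WT libraries and 161 over those of Gpr124-/-. Irf1 also rose in Gpr124deltaC/deltaC against WT, by 1.08 (adjusted p = 0.00601 by edgeR), and Tnfaip2 was higher in Gpr124-/- than in Gpr124deltaC/deltaC by 1.46. Of 12 fitted counter-receptors, the partners of the 9 genes on other cells, 5 rose and 2 fell, with a median of 0.51. Itgb3, the integrin chain of platelets and endothelium, rose by 2.12, Itgal, the LFA-1 chain, by 1.51 and Cd44 by 1.04, and Itgb7 fell by 1.14. Itgb3 had 17.2 to 42.4 TPM in WT and 34.6 to 171 in Gpr124-/-, ranges that overlap. The platelet markers moved with these genes (Itga2b by 2.31 and Pf4 by 1.94), and their part was not tested. In Gpr124deltaC/deltaC against WT, where 4.09% of all tested genes passed by adjusted p alone, 1 gene of the capture list rose and 3 fell, 1 surface glycoprotein rose, 2 NF-kB list genes rose and 2 fell, and 1 counter-receptor rose.

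**Figure D4:**
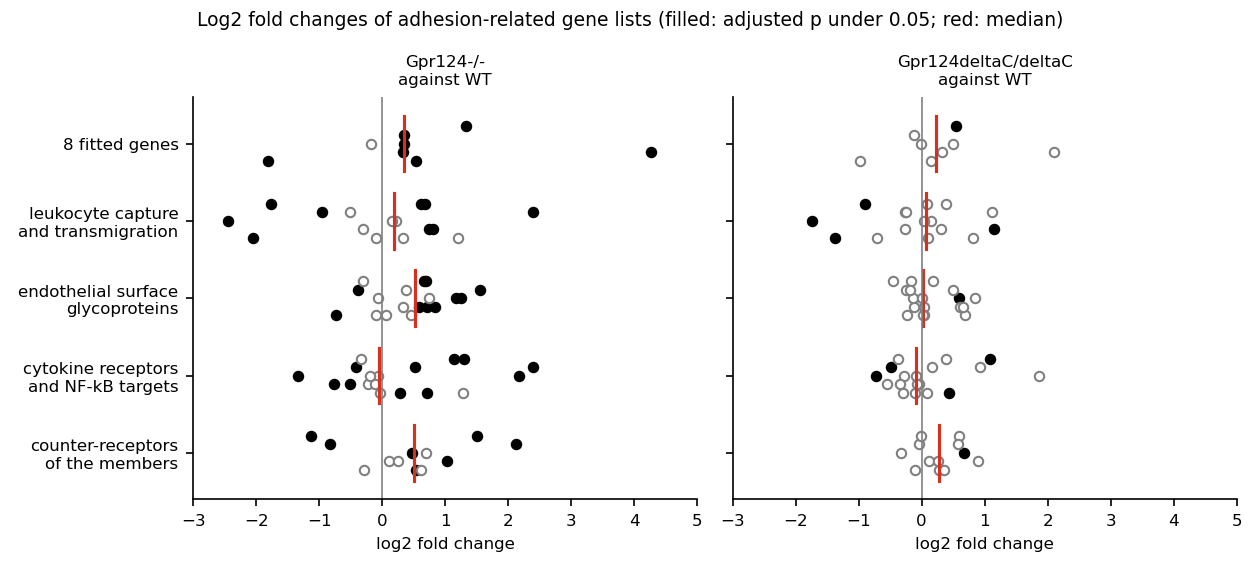
Log2 fold changes against WT (horizontal axis) of the 8 fitted genes and of the 4 lists, 1 point per gene, in Gpr124-/- (left) and Gpr124deltaC/deltaC (right); filled points have an adjusted p under 0.05, red bars are medians, and height within a row carries no value. In Gpr124-/- the medians were 0.34 for the 8 genes and 0.52 for surface glycoproteins, and each list held genes on both sides of 0.

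For each fitted gene, the genes whose levels ran most like it over the 12 libraries were taken by Pearson correlation of log2 CPM among 9989 genes of at least 8 mean CPM, as a description without a test, since all points share the 3 genotypes. Mcam ran closest with Camk1 (r = 0.993) and Lamb1 (r = 0.99), Pecam1 with Itga5 (r = 0.989) and Nid2 (r = 0.984), and Cd34 with Entpd1 (r = 0.961) and Dlst (r = 0.958). Icam2 ran closest with Plaur (r = 0.953) and Fdps (r = 0.952), Vcam1 with Ttpal (r = 0.952) and Ak3 (r = 0.944), and Icam1 with Pop4 (r = 0.922) and P2rx4 (r = 0.916). Sele ran closest with Fut4 (r = 0.94), a fucosyltransferase gene, and Amotl2 (r = 0.924). Alcam had the weakest pairs, Prdx3 (r = 0.872) and Ptn (r = 0.854), and its highest library was KE8.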

How the data were processed

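RNA from sorted CD31+ cells was amplified with a SmartSeq V4 kit and sequenced on an Illumina HiSeq instrument, and the submitters' processing notes name bcl2fastq 2.17 and the mm10 build. The aligner, the counting program and the strand setting are not given in the sources used here. The authors deposited whole-number counts for 49315 Ensembl genes without normalization, and TPM values, which deviated by at most 0.00498% from a recalculation with the deposited counts and gene lengths at 1 TPM or more. Of these genes, 49056 were found in GENCODE vM21 (GRCm38), which gave symbols and coordinates.

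Counts were tested with edgeR 4.0.16 in R 4.3.3 by the quasi-likelihood test (glmQLFit, glmQLFTest), with all 12 libraries and genotype as the term, TMM factors of 0.946 to 1.04, and filterByExpr at a minimum count of 10, which left 16637 genes. P-values were adjusted by Benjamini-Hochberg over these genes, and the call thresholds on p and fold follow the study. Selp, which failed the filter, was compared by an exact two-sided permutation test. Depth limits Sele and Selp, and 4 embryos per genotype limit the rest. Nothing states that embryos of a genotype came from separate litters, so p-values measure the spread between these samples.

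All 9 genes, the genes called in each list (at most 3 per direction and comparison), the targeted gene and the 2 most correlated genes were named. Genes outside this rule were named after their values were seen, because a result turned on them or as neighbours and markers. Members and lists were chosen with earlier results of these data known. Alternatives were DESeq2 1.42.0, upper-quartile factors, no filter on low counts, no fold threshold, the label letter as a term, only the 2 genotypes compared, and leaving out each library. Comparing overlaps on TMM-scaled CPM was added after seeing the data.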

Additional observations from a re-analysis of the deposited data

Results flagged for a closer look

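Of 30 groups of 4 libraries tested for a library far from the others (the 9 genes and Adgra2 in 3 genotypes), 1 was flagged, and chance flags about 1 in 20 groups. Alcam had 5.92 TPM in the WT library KE8, against 1.35 to 1.58 TPM in the other 3 WT libraries, a gap that spans 0.95 of the range of the group.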

How the results depend on the processing

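Over 24 log2 fold changes of the 8 fitted genes, 332 alternative values kept their direction and side of the threshold, 57 lost an adjusted p under 0.05, 7 gained it and 10 reversed. Mcam in Gpr124-/- against WT stayed between 1.08 and 1.44 in all 17 alternatives, and 1.08 is the value with the letter term, which compares 1 library with 1. In each of the others it passed. The label letter as a term leaves Gpr124-/- against WT to the K pair, because M holds 1 genotype. With it the log2 fold change was 4.15 for Sele, 0.26 for Icam1, 0.16 for Icam2, 0.32 for Pecam1 and 0.21 for Cd34. For Alcam it was -4.26, set by KE8, the highest library for this gene, and KE4, the lowest. In Gpr124-/- against Gpr124deltaC/deltaC it was 0.59 for Mcam and 0.31 for Icam2, with KE4 alone on the Gpr124-/- side. Mcam in Gpr124deltaC/deltaC against WT had an adjusted p above 0.05 in 9 of 17 alternatives, each leaving out 1 library (0.49 to 0.62 over all 12). Alcam in Gpr124-/- against WT ranged from -2.11 to -1.02 when 1 library was left out, and Sele from 3.81 to 5.13. The cause was not tested in the other cases.

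Reversals were all near 0. Icam1 in Gpr124deltaC/deltaC against WT was 0.011 with upper-quartile factors, 0.029 with the letter term and -0.084 to 0.019 when 1 library was left out. Cd34 in Gpr124-/- against Gpr124deltaC/deltaC was -0.012, -0.098 and -0.05 to 0.08 in the same 3 settings.

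Genes called numbered 1644 in Gpr124-/- against WT, 320 in Gpr124deltaC/deltaC against WT and 766 in Gpr124-/- against Gpr124deltaC/deltaC. Without the fold threshold they numbered 3295, 680 and 1468. With the letter term they numbered 846, 428 and 209, and the last ranged from 506 to 1008 when 1 library was left out, with 506 without the Gpr124-/- library ME5. Of the 9 genes, those called went from 3 to 7, from 0 to 1 and from 0 to 3 without the fold threshold. In the last comparison 1 was called without the filter (Selp) or with the letter term (Alcam), and 0 to 2 when 1 library was left out, which were Selp wherever it passed the filter and also Sele without LE2, both genes that pass it through Gpr124-/- and whose calls follow from it in part. The count of genes with no overlap was 6 of 9 in Gpr124-/- against WT on TMM-scaled CPM in place of 7, 1 in place of 0 in Gpr124deltaC/deltaC against WT, and 3 in both for the mutants. The share of all tested genes without overlap was taken on TPM only, so these CPM counts have no share beside them.

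No paired analysis was possible because replicate numbers follow accession order and name samples only, and the label letters, used as a term above, do not pair single embryos.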
